A study of Mus musculus with 4 samples.

Results

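Vascular mural cells are the pericytes and vascular smooth muscle cells that wrap the endothelium of blood vessels. They were picked from single-cell RNA sequencing of mouse ovary, where 1052 of 47782 cells (152 in Fosl2F/F 1, 567 in Fosl2F/F 2, and 177 and 156 for the 2 libraries labelled Fosl2cKO) met a rule on detected genes. The rule took cells with at least 500 genes, over 1000 UMIs (unique molecular identifiers, each marking 1 captured RNA molecule) and under 10% mitochondrial UMIs. A cell then had to hold at least 3 of Rgs5, Mustn1, Sgip1, Notch3, Map3k7cl, Rgs4, Aspn and Pde3a, with Rgs5 or Notch3 among them. It was left out where Inhba and Amh, markers of granulosa cells (GCs), reached 10 per 10000 UMIs, where 3 or more of the endothelial genes Flt1, Cldn5, Mecom and Ptprb were detected, or where all 4 of the theca and stroma genes Asb4, Enpep, Lamc3 and Hhip were. These cells are called vascular mural cells throughout, and are distinct from the mural GCs that line the follicle wall. All libraries came from ovaries of 8-week-old female mice of the same litter, taken in estrus by vaginal smear. Fosl2F/F mice carry 2 floxed copies of Fosl2, an AP-1 transcription factor, without Cre, and Fosl2cKO mice carry the same floxed alleles with Cre under the Cyp19a1 promoter, from a line on the C57BL/6J background. That promoter is used by GCs, so vascular mural cells of both groups hold the floxed gene and are not the cells in which Cre is meant to act. The comparison therefore asks how the vessel wall differed in ovaries whose GCs were the targeted cells.

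Pericytes sit singly along capillaries within the basement membrane that they share with the endothelium, and vascular smooth muscle cells form contractile rings around arterioles and larger vessels. Endothelial PDGF-B recruits both through the receptor Pdgfrb, Notch ligands on the endothelium act on Notch3, and calcium entry sets the tone of the actin and myosin apparatus while cyclic GMP relaxes it. In the ovary these cells lie in the theca layer around growing follicles and spread with the vessels that form the corpus luteum, since the GC layer of a follicle has no vessels before ovulation.

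The deposited tables held 11045 and 28155 cells for Fosl2F/F 1 and 2, and 8654 and 9255 for Fosl2cKO 1 and 2, with 120327227 to 148836173 UMIs per library. Vascular mural cells contributed 1042327, 3334338, 1891990 and 1647006 UMIs in the order Fosl2F/F 1, Fosl2F/F 2, Fosl2cKO 1 and Fosl2cKO 2, which is the order of every set of 4 values that follows. Their median depth was 4834, 3351, 7264 and 7048 UMIs per cell, so that both libraries labelled Fosl2cKO were deeper than both Fosl2F/F libraries. Fosl2F/F 2 stood apart with the most and the shallowest cells, and 30.0% of its vascular mural cells were among those with the highest Scrublet doublet scores, against 7.89%, 9.04% and 10.3% in the other 3. The number of cells counted as high grows with the size of a library, and over all cells kept the share was 19.5% in Fosl2F/F 2 and 5.74% to 7.03% in the others. Between 15 and 81 barcodes were shared by any pair of libraries, and 0 of them belonged to a vascular mural cell in both.

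The cells were chosen by the 8 genes of the rule, so the levels of those genes are a description. Rgs5, a brake on G protein signaling that is widely used as a pericyte marker, had 2452, 1259, 1165 and 1975 UMIs per 1000000 UMIs of the class (CPM), against a mean of 13.3 CPM in all other cells. Notch3, the Notch receptor of mural cells, had 468, 254, 286 and 442 CPM, against 4.95 CPM in the other cells. Pde3a, a phosphodiesterase that breaks down cyclic AMP, had 1548, 754, 1001 and 981 CPM. The 2 groups overlapped for all 3 of these genes, with Fosl2F/F 1 the highest. Mustn1, a small nuclear protein of muscle and skeletal tissue, had 653, 229.7, 509 and 145 CPM and Map3k7cl had 186, 94.5, 184 and 68.6 CPM, and Fosl2cKO 2 was the lowest library for both. Asporin (Aspn, a small proteoglycan) had 429.8, 304, 286 and 392 CPM and Sgip1, an endocytic adaptor, had 334, 229.7, 200.3 and 312 CPM. Rgs4, a relative of Rgs5, had 226, 109.8, 229 and 167 CPM, and the groups overlapped for these genes as well.

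Of 1461 cells with at least 3 of the genes, 1316 held Rgs5 or Notch3, of which 32 were left out for GC markers, 206 for endothelial genes and 26 for theca and stroma genes. Members held exactly 3 of the 8 genes in 214 cells, 4 in 207, 5 in 201, 6 in 215, 7 in 138 and 8 in 77. At the edge of the rule, members with exactly 3 genes averaged 229 CPM of Rgs5 and 516 CPM of Ebf1, against 40.1 and 97.0 CPM in the 493 cells with 2 genes that lay just outside. Members with 6 to 8 genes averaged 2575 CPM of Rgs5. The theca and luteal gene Cyp11a1 averaged 1137 CPM in members with exactly 3 genes (67.3 to 2526 CPM over the libraries), 433 CPM in members with 6 to 8 (67.1 to 938 CPM) and 1291 CPM just outside. The fibroblast proteoglycan Dcn averaged 707 CPM (201 to 1414 CPM), 168 CPM (95.2 to 233 CPM) and 551 CPM. The means of these 2 genes were higher in members near the edge of the rule, but the ranges over libraries overlapped.

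**Figure D1:**
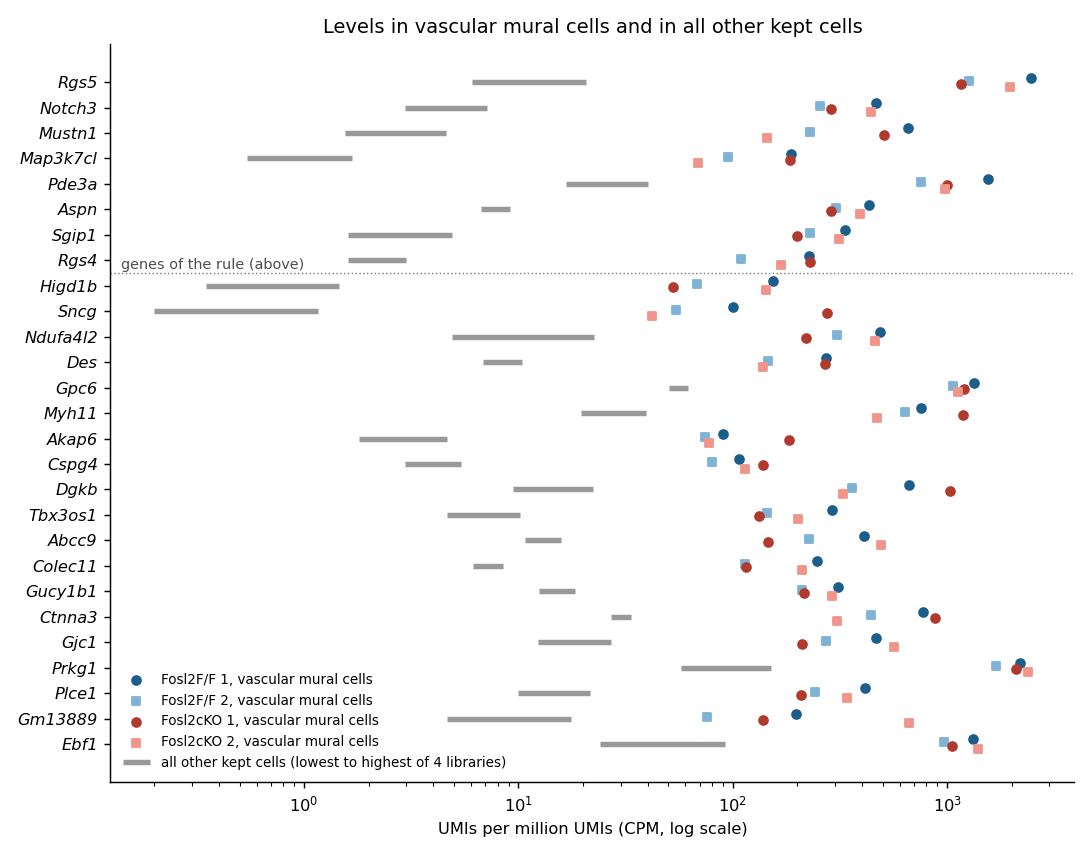
Levels of the 8 rule genes and of 19 of the 20 genes outside the rule with the highest ratio to other cells, in CPM on a log axis, with 1 point per library for vascular mural cells and a grey bar from the lowest to the highest library for all other cells kept. Every point lies to the right of its bar, and the libraries of the 2 groups are interleaved for most genes.

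The label was checked on contractile and pericyte genes that the rule did not name. The marker lists of other cells shared Flt1 and Cldn5 (endothelial) and Inhba and Amh (GC) with the rule. Their sums were thus partly set by the choice of cells. Of the 24 genes of the contractile apparatus, the summed level was 17598, 11751, 21766 and 9467 CPM in vascular mural cells, against 2730 to 3048 CPM in endothelial cells and 4261 to 5566 CPM in theca-stromal cells (at least 3 of Asb4, Enpep, Lamc3 and Hhip). For 20 pericyte genes the sums were 4363, 2705, 2696 and 4267 CPM, against 1136 to 1484 CPM in endothelial cells and 269 to 394 CPM in theca-stromal cells. Both sets thus stood above both classes in every library. The endothelial class (at least 3 of Flt1, Cldn5, Mecom and Ptprb) and the theca-stromal class took only cells with fewer than 3 of the 8 rule genes. Cells rich in rule genes were thus kept out of both in advance. Pericyte markers of other organs were not uniform in these cells. Vtn, which marks brain pericytes, had 29.7, 9.0, 10.6 and 19.4 CPM, Anpep had 4.80, 4.20, 8.46 and 4.25 CPM and Tbx18 was at 0 in 3 libraries with 1 UMI in Fosl2F/F 2. Markers of other cells were present as well. The 9 endothelial markers summed to 182 to 295 CPM (none at 0 in all 4 libraries, 5 under 10 CPM on average) against 5385 to 6750 CPM in endothelial cells. GC markers summed to 531 to 1145 CPM, against 11239 to 18717 CPM in GCs, and were thus far lower in vascular mural cells. Theca and luteal markers summed to 1784, 4081, 1917 and 984 CPM, against 4847, 4307, 1724 and 2991 CPM in theca-stromal cells. They were thus not low, since Fosl2F/F 2 came close to the theca-stromal sum and Fosl2cKO 1 lay above it. Immune markers summed to 25.9 to 97.1 CPM and epithelial markers to 10.9 to 105 CPM. Glial and red cell genes were at 10.3 to 34.4 CPM in 3 libraries and at 323 CPM in Fosl2F/F 1, where the hemoglobin gene Hbb-bs alone had 185 CPM.

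The genes that stood out from the other ovarian cells, ranked by the lowest of the 4 library ratios, were led by Higd1b, a small mitochondrial protein of the hypoxia-induced family. Higd1b had 154, 68.1, 52.3 and 143 CPM, 47.0 to 307 times the level in all other cells. Sncg, or gamma-synuclein, had 99.8, 54.6, 276 and 41.9 CPM, 46.8 to 374 times, with Fosl2cKO 1 well above the other 3 libraries. Ndufa4l2, a mitochondrial subunit-like protein that hypoxia induces, had 484, 307, 219.9 and 461 CPM, 21.5 to 94.3 times. The glypican Gpc6, a cell surface heparan sulfate proteoglycan, varied little over the libraries at 1341, 1062, 1196 and 1120.2 CPM, 18.0 to 23.6 times. Others among the 20 are known parts of vessel wall physiology and had lowest ratios of 10.5 or more. Among them, Gjc1, a connexin of the vessel wall, had 466, 271, 209.8 and 565 CPM. Colec11, a secreted collectin, had 248, 114, 115 and 210.1 CPM. In both genes Fosl2F/F 1 and Fosl2cKO 2 were high and the other 2 libraries were low. Dgkb, a diacylglycerol kinase, had 661, 360.2, 1028 and 326 CPM, and Ctnna3, a catenin of muscle junctions, had 768, 443, 875 and 308 CPM. Both were highest in Fosl2cKO 1 and lowest in Fosl2cKO 2. The uncharacterized gene Gm13889 had 198, 75.9, 138 and 667 CPM and was highest in Fosl2cKO 2. Further genes of the 20 were Des, Myh11, Akap6, Cspg4, Tbx3os1, Abcc9, Gucy1b1, Prkg1, Plce1 and Ebf1. Ebf1, an early marker of the pericyte lineage, was also used by endothelial cells, at 911 CPM there against 1319, 969.6, 1058 and 1393 CPM in vascular mural cells.

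Contractile genes varied widely between libraries. Acta2, smooth muscle alpha-actin, had 4074, 2284, 5385 and 1616 CPM. Tagln, the actin-bundling transgelin, had 2898, 1623, 3573 and 837 CPM and Myh11, the smooth muscle myosin heavy chain, had 753, 639, 1182 and 469 CPM. In each case Fosl2cKO 1 was the highest and Fosl2cKO 2 the lowest library, so the 2 libraries labelled Fosl2cKO enclosed both Fosl2F/F libraries. The order was the same for Myl9, a regulatory light chain of myosin, at 879, 452, 1216 and 345 CPM. Cnn1, or calponin, had 55.6, 51.3, 114 and 14.6 CPM. Pln, which restrains the calcium pump of the sarcoplasmic reticulum, spanned a wide range at 63.3, 17.4, 156 and 11.5 CPM. Cald1, the actin-binding caldesmon, varied little at 2146, 1729, 1989 and 1886 CPM. Myocd, the coactivator of the smooth muscle program, had 94.0, 68.4, 129 and 61.9 CPM, and its partner Srf, a transcription factor of most tissues, had only 1.92, 6.6, 9.51 and 8.5 CPM.

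Srf binds the CArG box, a motif long known from contractile genes, and the promoters that hold one are shown as the sequence context of this list. Whether the box bears on the levels was not tested. In the 250 bases before the RefSeq start of a gene (GRCm38.p6), a CArG box was found before 4 of the 19 contractile genes that had a promoter entry (21.1%), and before 439 of all 27025 genes with an entry (1.62%). The box is a pair of C, a run of A or T and a pair of G, so a box on one strand is also a box on the other. The 4 genes with a box include Srf itself, which is a transcription factor and not a contractile gene. Tagln, Myh11, Actg2 and Myocd were among the genes of the list without an entry. Each line gives 30 bases on the strand of the gene, 5′ to 3′, with the box in capitals. Its first base lies 161 bases before the start for Myl9 (chr2:156775293-156775322, plus strand), 50 for Myl6 (chr10:128493040-128493069, minus strand), 35 for Ldb3 (chr14:34588697-34588726, minus strand), and 82 and 62 for the 2 boxes of Srf itself (chr17:46556225-46556254 and chr17:46556205-46556234, minus strand), whose windows overlap.
Myl9: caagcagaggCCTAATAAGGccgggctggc
Myl6: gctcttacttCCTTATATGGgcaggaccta
Ldb3: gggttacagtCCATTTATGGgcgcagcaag
Srf, farther box: ctggggctcgCCATATAAGGagcggcctcg
Srf, nearer box: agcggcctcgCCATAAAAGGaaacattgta
Of these genes, Myl6, a myosin light chain of smooth muscle and other cells, had 2323, 1457, 2554 and 1374 CPM and Ldb3, a protein of the actin anchoring disc, had 20.1, 13.8, 38.1 and 9.11 CPM, both highest in Fosl2cKO 1 and lowest in Fosl2cKO 2.

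The pericyte genes had another order over the libraries. Pdgfrb, the receptor for PDGF-B, had 426, 231, 243 and 471 CPM. Abcc9, the regulatory subunit of the ATP-sensitive potassium channel of pericytes, had 409, 226, 145 and 492 CPM, and Kcnj8, the pore of that channel, had 80.6, 47.7, 34.4 and 60.1 CPM. For each of them Fosl2F/F 1 and Fosl2cKO 2 lay above Fosl2F/F 2 and Fosl2cKO 1. The same held for Steap4, a metalloreductase, at 213, 115, 76.6 and 174 CPM. Cox4i2, an oxygen-sensitive subunit of cytochrome c oxidase, had 301, 193, 116 and 287 CPM. Cspg4, the proteoglycan NG2, had 107, 80.4, 139 and 114 CPM and did not follow this order.

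**Figure D2:**
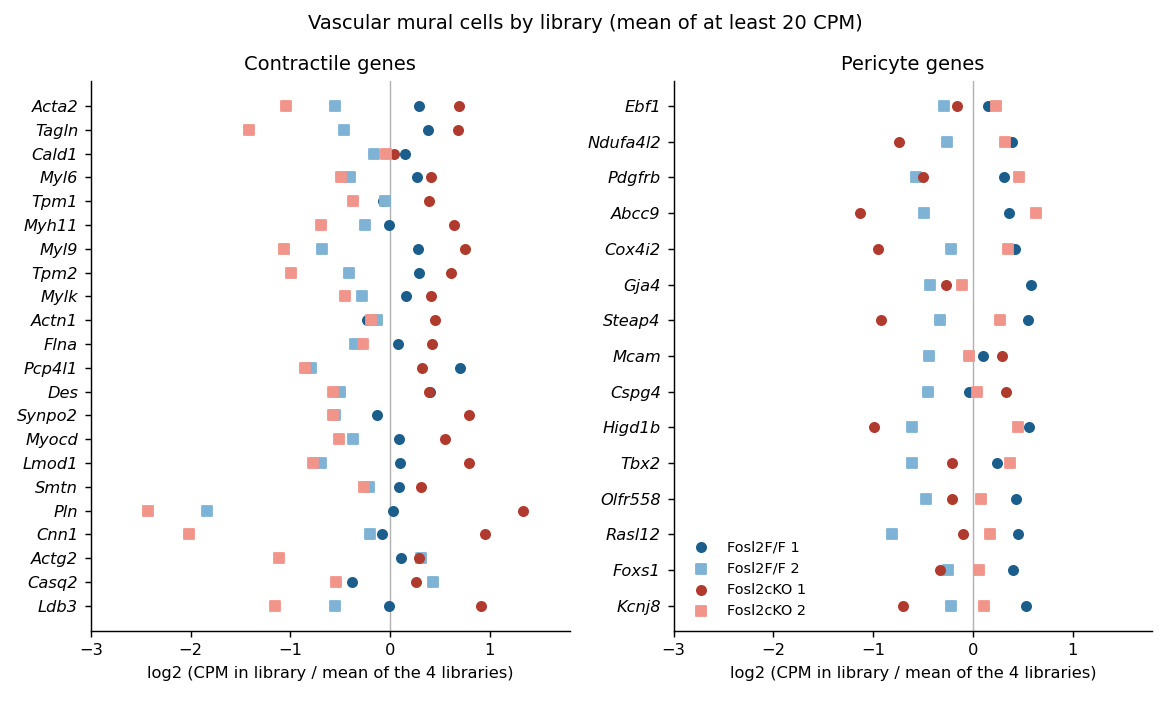
Contractile genes (left) and pericyte genes (right) with a mean of at least 20 CPM, each as the log2 ratio of a library to the mean of the 4 libraries, with 1 point per library. Fosl2cKO 1 lies to the right and Fosl2cKO 2 to the left for most contractile genes, and Fosl2cKO 1 lies to the left for genes such as Abcc9 and Cox4i2.

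To see whether single cells held both programs, a cell was counted as contractile with at least 2 of 8 contractile genes (Myh11, Cnn1, Des, Actg2, Lmod1, Synpo2, Pln, Casq2) and as pericyte with at least 2 of 8 pericyte genes (Kcnj8, Abcc9, Higd1b, Vtn, Cspg4, Gja4, Ndufa4l2, Foxs1). These are ranges of a count and not cell types. Because detection follows depth, each of the 846 cells with at least 2000 UMIs was thinned to 2000. At that depth the contractile set alone was met in 18, 69, 59 and 13 cells, the pericyte set alone in 53, 141, 30 and 68, both in 33, 69, 38 and 25, and neither in 28, 127, 37 and 38. Cells with pericyte genes alone were thus the larger of the 2 exclusive groups in 3 libraries, and cells with contractile genes alone were the larger in Fosl2cKO 1. Cells meeting neither set had median depths of 6094, 7316, 14452 and 14578 UMIs before thinning, above those of the contractile-only cells in every library, and 17.9%, 62.2%, 18.9% and 26.3% of them were among the cells with high doublet scores. As a background, the contractile set was met by 0% to 0.575% of endothelial cells and by 0.642% to 2.08% of theca-stromal cells thinned in the same way, whose median depths before thinning were 5673 to 10321 and 6746 to 16974 UMIs. The pericyte set was met by 1.15% to 2.67% of the endothelial and 1.17% to 3.0% of the theca-stromal cells. Both classes held only cells with fewer than 3 of the 8 rule genes, so these backgrounds were partly set by that limit.

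Cells meeting the contractile set, alone or with the other, made up 38.6%, 34.0%, 59.1% and 26.4% of the thinned cells, in the same order, from cells with median depths of 5246, 4848, 7697 and 7850 UMIs before thinning. This gave group means of 36.3% ± 3.29 for Fosl2F/F and 42.8% ± 23.2 for Fosl2cKO (SD, n = 2 libraries each), and the groups overlapped (two-sided exact permutation test, p = 1, where 2 libraries against 2 allow no p under 0.33). Without thinning the shares were 59.9%, 53.3%, 74.6% and 60.9%. Both libraries labelled Fosl2cKO were then higher (means of 67.7% ± 9.67 against 56.6% ± 4.67, exact permutation p = 0.33), and they were also the deeper ones. The part of depth in the unthinned difference was not tested beyond the thinned shares.

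**Figure D3:**
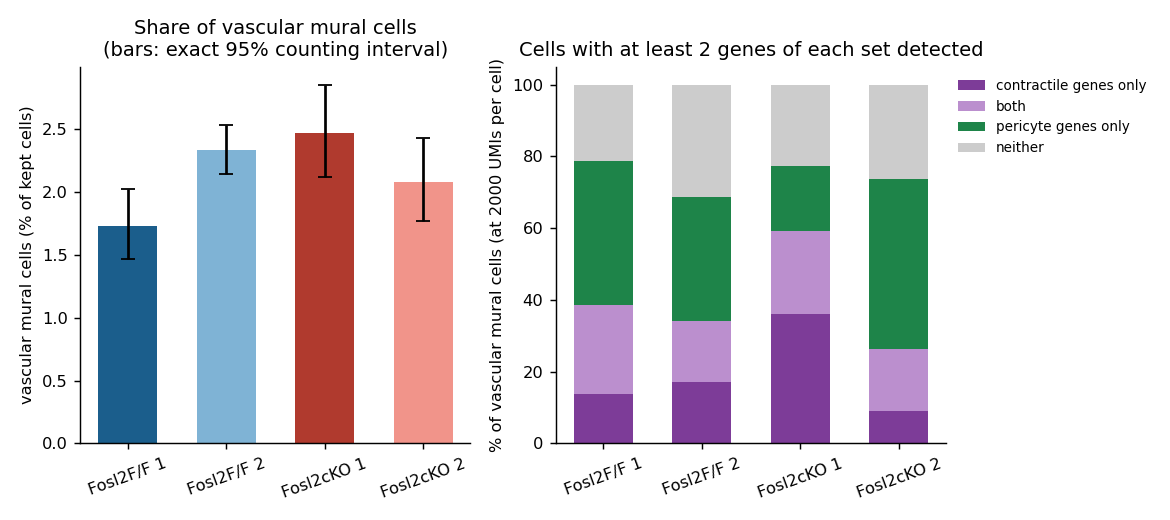
Left, vascular mural cells as a percentage of the cells kept in each library, with exact 95% intervals for counting error. Right, the thinned vascular mural cells of each library split by the detection of at least 2 contractile or pericyte genes, where the part with contractile genes runs from 26.4% in Fosl2cKO 2 to 59.1% in Fosl2cKO 1.

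Levels in the 2 exclusive groups were then taken from the UMIs left over after thinning, so that the molecules used to split the cells were not counted again. The split itself was made on genes of these programs, so these values are a description and were not tested. Errors are SDs over the 4 libraries, and log2 ratios use CPM + 5. The leftover UMIs numbered 103581, 277314, 415256 and 102173 in contractile-gene cells and 241335, 612292, 248351 and 477734 in pericyte-gene cells. Levels near 20 CPM thus rest on few UMIs in some libraries. A gene counts as at 20 CPM or more where its mean reaches that in either group, so it can enter through the group where it is high. Among contractile genes outside the splitting set, Tagln had 5216 ± 2253 CPM in contractile-gene cells and 398 ± 171 CPM in pericyte-gene cells (log2 ratio 3.66 ± 0.42). Acta2 had 7526 ± 2971 CPM in contractile-gene cells and 1079.9 ± 116 CPM in pericyte-gene cells (log2 ratio 2.71 ± 0.72). Myocd had 267 ± 76.9 CPM in contractile-gene cells and 14.2 ± 7.70 CPM in pericyte-gene cells (log2 ratio 3.89 ± 0.83). Of the 15 contractile genes at 20 CPM or more outside the splitting set and the rule, 14 were higher in contractile-gene cells in all 4 libraries, with a median log2 ratio of 1.69, whereas 778 of all 7918 genes at that level were higher there and 1217 were higher in pericyte-gene cells. Other genes on the contractile side were Dmd, the dystrophin that ties actin to the matrix, at 2611 ± 669.6 CPM in contractile-gene cells and 423 ± 31.3 CPM in pericyte-gene cells. Kcnab1, a potassium channel subunit, had 1106 ± 411 CPM in contractile-gene cells and 153 ± 25.9 CPM in pericyte-gene cells. Sox6, a transcription factor, had 223 ± 130.4 CPM in contractile-gene cells and 15.2 ± 3.41 CPM in pericyte-gene cells. Of the 8 rule genes, Mustn1, Map3k7cl and Pde3a were higher in contractile-gene cells in all 4 libraries (log2 ratios 3.39 ± 1.02, 1.51 ± 1.06 and 0.81 ± 0.61) and 0 were higher in pericyte-gene cells in all 4, whereas Rgs5 was higher in pericyte-gene cells in 3 of 4 (log2 ratio -0.54 ± 0.41) and Notch3 in 2 of 4.

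Outside the splitting set and the rule, 9 pericyte genes were at 20 CPM or more in either group. Of these, 5 were higher in pericyte-gene cells in all 4 libraries (55.6%, beside 15.4% of all genes at that level). In contractile-gene cells 1, Olfr78, was higher in all 4 (11.1%, beside 9.83%). The median log2 ratio was -0.56. Olfr78 had 6.72, 2.70, 12.7 and 2.43 CPM over all vascular mural cells and met the limit through contractile-gene cells. Pdgfrb had 179 ± 56.9 CPM in contractile-gene cells and 524 ± 134 CPM in pericyte-gene cells (log2 ratio -1.54 ± 0.26). The basement membrane was divided between the groups. Col4a1, a chain of type IV collagen, had 777 ± 361 CPM in contractile-gene cells and 2708 ± 389.8 CPM in pericyte-gene cells (log2 ratio -1.89 ± 0.63), and Col4a2, its partner chain, followed at -1.74 ± 0.48. Among laminin chains, Lama4, the chain of capillary basement membranes, had 52.0 ± 15.9 CPM in contractile-gene cells and 191 ± 57.2 CPM in pericyte-gene cells, while Lama5 had 108 ± 63.6 CPM in contractile-gene cells and 13.6 ± 16.7 CPM in pericyte-gene cells. Of 23 basement membrane genes, 10 were higher in pericyte-gene cells in all 4 libraries (43.5%, beside 15.4% of all genes at that level). In contractile-gene cells 7 were higher in all 4 (30.4%, beside 9.83%). Col15a1, which joins the basement membrane to the surrounding matrix, had 60.5 ± 63.3 CPM in contractile-gene cells and 343 ± 73.1 CPM in pericyte-gene cells. Elastin (Eln), the elastic fiber of arteries, lay on the contractile side at 146 ± 91.7 CPM in contractile-gene cells and 21.6 ± 10.3 CPM in pericyte-gene cells. Nostrin, which binds endothelial nitric oxide synthase, had 15.1 ± 12.2 CPM in contractile-gene cells and 221 ± 80.4 CPM in pericyte-gene cells. Of the 9 endothelial markers, 2 were at 20 CPM or more in either group, with a median log2 ratio of -0.90. Of these 2, 1 was higher in pericyte-gene cells and 0 in contractile-gene cells in all 4 libraries. The part of endothelial RNA in the levels of pericyte-gene cells was not tested.

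Signaling genes were counted at 20 CPM or more in either group, without genes of the split or the rule. A gene such as P2rx1 thus entered only through the group where it was high. Over all 7918 genes at that level, 778 (9.83%) were higher in contractile-gene and 1217 (15.4%) in pericyte-gene cells in all 4 libraries. Of 12 Notch genes, 2 were higher on each side (16.7% each), a share close to that of all genes. The counts were 8 and 3 of 17 for channels and calcium transporters (47.1% and 17.6%), 6 and 7 of 22 for cyclic nucleotide genes (27.3% and 31.8%), and 5 and 3 of 11 for vasoactive receptors (45.5% and 27.3%). Of the Notch pathway, the ligand Jag1 and the target Hey2 were higher in contractile-gene cells in all 4 libraries (log2 ratios 1.01 ± 0.71 and 1.51 ± 0.93), and the target Heyl was higher in pericyte-gene cells (-1.46 ± 0.72). The subunits of soluble guanylyl cyclase, the receptor for nitric oxide, were higher in pericyte-gene cells, with log2 ratios of -1.22 ± 0.61 for Gucy1a1 and -0.75 ± 0.26 for Gucy1b1, whereas the cyclic GMP-dependent kinase Prkg1 was at 2377 ± 534 CPM in contractile-gene cells and 2427 ± 578 CPM in pericyte-gene cells. The calcium channel Cacna1c and the calcium pump Atp2a2 were higher in contractile-gene cells (log2 ratios 0.59 ± 0.21 and 1.0 ± 0.22), and the cation channel Trpc6 was higher in pericyte-gene cells (-1.06 ± 0.33). Ednra, the endothelin receptor of smooth muscle, was higher in contractile-gene cells in 2 libraries and in pericyte-gene cells in the other 2. P2rx1, an ATP-gated channel, had 29.5 ± 21.9 CPM in contractile-gene cells and 1.45 ± 1.98 CPM in pericyte-gene cells, and Ramp1, part of the receptor for calcitonin gene-related peptide, had 69.9 ± 52.3 CPM in contractile-gene cells and 4.34 ± 3.40 CPM in pericyte-gene cells.

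**Figure D4:**
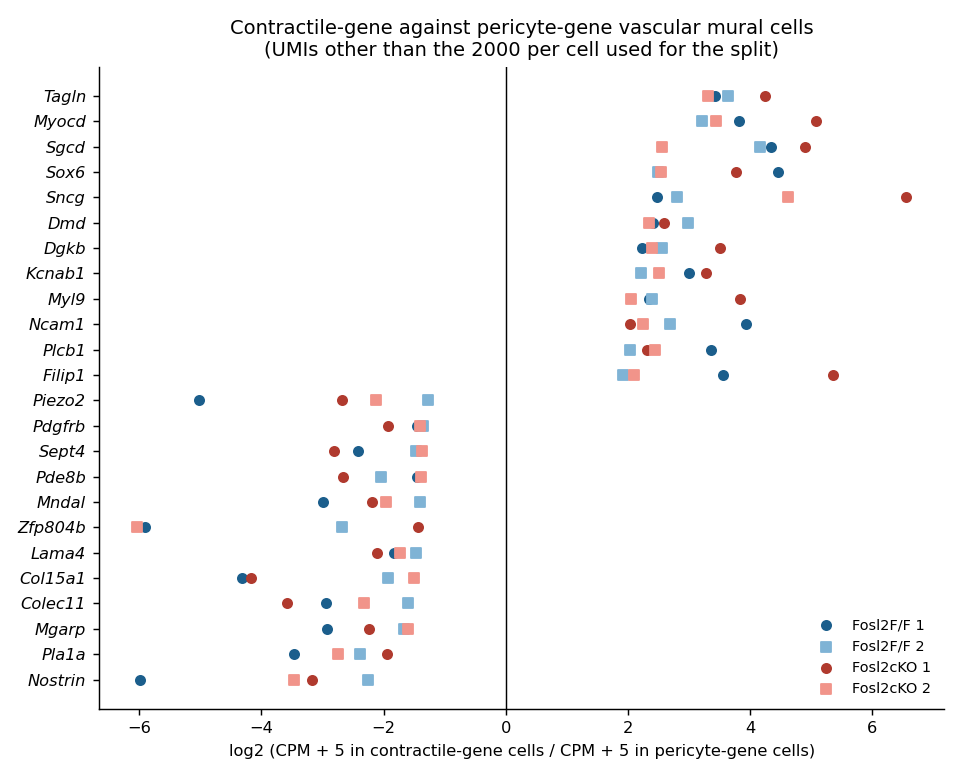
Log2 ratio of CPM + 5 in contractile-gene cells to that in pericyte-gene cells, with 1 point per library. Values are from UMIs not used for the split. Shown are the 12 genes reported here, outside the splitting sets and the rule, that lay farthest to each side in all 4 libraries. Only genes with a mean of at least 100 CPM in either group were ranked. The ranking used the lowest ratio for the upper 12 and the highest ratio for the lower 12. All points of the upper 12 genes are above 0 and all points of the lower 12 are below 0, which follows from this choice.

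Vascular mural cells made up 1.73% of all cells kept in Fosl2F/F 1 (95% exact interval 1.47% to 2.03%) and 2.33% in Fosl2F/F 2 (2.15% to 2.53%). They made up 2.47% in Fosl2cKO 1 (2.12% to 2.85%) and 2.08% in Fosl2cKO 2 (1.77% to 2.43%). The mean share was 2.03% ± 0.424 for Fosl2F/F and 2.27% ± 0.275 for Fosl2cKO (SD, n = 2 libraries each), and the libraries of the 2 groups were interleaved (two-sided exact permutation test, p = 0.667). The intervals cover counting error only. Thinned to 2000 UMIs, the shares were 1.32%, 1.35%, 1.57% and 1.53% and did not overlap (exact permutation p = 0.33, the smallest possible). The share depends on the number of GCs in a library. Outside GCs, it was 2.78%, 2.66%, 2.78% and 2.37%, and per 100 endothelial cells there were 131, 84, 92.7 and 83.0 vascular mural cells, so that the mean of the libraries labelled Fosl2cKO was then the lower one. It was also the lower one without Fosl2F/F 1.

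Between the conditions, the targeted gene was examined before any other. Fosl2 had 243, 282, 344 and 183 CPM in vascular mural cells, from 253, 940, 651 and 302 UMIs. Fosl2cKO 1 was the highest and Fosl2cKO 2 the lowest, and the log2 fold change was -0.00097 (standard error 0.36). In GCs, the cells targeted by Cre, the values were 176, 179.8, 197 and 106 CPM. Fosl2cKO 1 was also the highest and Fosl2cKO 2 the lowest library there, so the level did not separate the labels. LoxP sites flank exons 2 and 4 of Fosl2, and exon 4 is the last one in GENCODE. Whether that exon is removed up to the 3′ end that these reads cover is not given in the sources used here, and the tables do not separate exons. Cyp19a1, whose promoter drives Cre, had 2.88, 4.80, 1.06 and 3.04 CPM from 3, 16, 2 and 5 UMIs, against 68.8 to 329 CPM in GCs.

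Plb1, a phospholipase gene, lies 74866 bases beyond the end of Fosl2 on the same strand (chr5:32232708-32366520 and chr5:32135801-32157842 of GRCm38). It had 2, 1, 100 and 186 UMIs in vascular mural cells, or 1.92, 0.30, 52.9 and 113 CPM, so both libraries labelled Fosl2cKO were above both Fosl2F/F libraries. The ratio of the pooled levels was 118 (95% counting interval 39.9 to 575). The edgeR quasi-likelihood test gave an unadjusted p of 1.4e-05 and a Benjamini-Hochberg adjusted p of 0.152, so Plb1 did not pass. The fitted log2 fold change was 6.71, which depends on how the few Fosl2F/F UMIs are treated. It was 4.65 without the cells with high doublet scores, 5.29 without Fosl2F/F 2 and 7.88 without Fosl2F/F 1. Plb1 had 0, 0.20, 51.4 and 38.3 CPM in endothelial cells and 0.12, 0, 69.3 and 77.5 CPM in theca-stromal cells, with the same separation of the groups. Babam2, the gene on the other side of Fosl2, had 135, 194, 169.7 and 188 CPM, and its groups overlapped. Relative to the GCs of the same library, the vascular mural level was 5.59% in Fosl2cKO 1 and 35.1% in Fosl2cKO 2. For the GC gene Inha this percentage was 4.35%, 7.87%, 4.36% and 5.92%. In Fosl2cKO 1 this percentage was 1.54% for Cyp19a1, 2.75% for Inhba, which the rule limits, 3.21% for Hsd17b1, 4.23% for Nr5a2 and 6.45% for Fshr. Of these GC genes and Inha, only Fshr lay above Plb1 in Fosl2cKO 1. In Fosl2cKO 2 Plb1 lay above all of them. Whether free RNA from GCs contributed in either library was not tested.

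Across all genes, edgeR compared the UMIs summed over the vascular mural cells of each library. To pass, a gene needed a Benjamini-Hochberg adjusted p below 0.1 together with an absolute log2 fold change above 0.25, and 0 of 11192 genes tested met both (0%), with a smallest adjusted p of 0.152. At an unadjusted p under 0.05 there were 336 genes (3.0%). Both libraries labelled Fosl2cKO were above both Fosl2F/F libraries for 1641 genes (14.7%) and below both for 1593 (14.2%), and counts of gene groups are read against these percentages. DESeq2 passed 7 genes, all higher in the libraries labelled Fosl2cKO, which were Plb1, Cebpd, Scand1, Sfrp1, Ier5, Cilp and Eif3f, the last 2 named after their values had been seen. In edgeR, genes passed on leaving out Fosl2cKO 1 or Fosl2cKO 2, where the lone library left is assumed to vary like the others. Genes also passed without a filter on low counts. In these fits p followed a normal distribution of fold change over standard error, so the spread of each gene between libraries was not used. In the main fit, with 2 libraries per group, p-values measure the spread between these libraries alone.

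The genes with the smallest unadjusted p among those at 20 CPM or more, none of which passed in edgeR, were led after Plb1 by Cebpd, a C/EBP transcription factor of the acute phase and of adipogenesis. Cebpd had 62.4, 54.0, 336 and 265 CPM, with 2.36 as its log2 fold change, a standard error of 0.30 and an adjusted p of 0.303. Log2 fold changes stand in parentheses from here on. Scand1, a SCAN domain protein, had 15.4, 29.1, 112 and 137 CPM (2.39, standard error 0.34, adjusted p = 0.404). Sfrp1, a secreted antagonist of Wnt ligands, had 17.3, 20.1, 95.1 and 70.4 CPM (2.12, standard error 0.31, adjusted p = 0.431). In all of these the lowest library labelled Fosl2cKO was well above the highest Fosl2F/F library. Ier5, an immediate early gene, had 20.1, 24.3, 62.4 and 104 CPM (1.86, adjusted p = 0.969). In the other direction, Prxl2b, a prostamide and prostaglandin F synthase, had 30.7, 47.1, 11.6 and 15.2 CPM (-1.58, standard error 0.35). The mitochondrial malic enzyme Me3 had 37.4, 37.5, 14.3 and 17.6 CPM (-1.25), and Mctp1, a calcium-binding membrane protein, had 104, 148, 57.1 and 71.6 CPM (-1.0). These were lower in both libraries labelled Fosl2cKO, by smaller factors. Cyfip2, an actin regulator, had 17.3, 48.6, 9.51 and 9.71 CPM (-1.84). Nr5a2, a nuclear receptor of GCs and luteal cells, had 123, 290.0, 42.8 and 101 CPM (-1.56), against a mean of 1215 CPM in GCs. The log2 fold change was -0.36 for Mctp1 without the cells with high doublet scores, -0.91 for Cyfip2 and -0.86 for Nr5a2 without Fosl2F/F 2, and -1.92 for Me3 in cells with at least 4 rule genes. Without a filter on low counts, 8 of the 10 genes passed in edgeR, all but Me3 and Mctp1, with an adjusted p of 0.019 for Prxl2b, 0.0044 for Cyfip2 and 0.0012 for Nr5a2. That fit, like those without Fosl2cKO 1 or Fosl2cKO 2, did not use the spread of each gene between libraries. For Nr5a2 the unadjusted edgeR p was 0.013 in the main fit (-1.56, standard error 0.49). It was 2.1e-06 without the filter, at nearly the same fold change (-1.55, standard error 0.33).

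Endothelial cells of the same libraries gave values beside these. In them Cebpd had 24.8, 32.3, 157 and 130.4 CPM, Scand1 had 13.9, 28.4, 89.3 and 123 CPM and Ier5 had 30.7, 26.1, 67.5 and 159 CPM, again with no overlap between the groups. The difference between the effects of the condition in the 2 classes was 0.09 (standard error 0.30) on the log2 scale for Cebpd, 0.17 (standard error 0.29) for Scand1 and -0.10 (standard error 0.34) for Ier5. For Sfrp1 the endothelial values were 5.95, 5.49, 11.1 and 14.8 CPM and the difference was 0.90 (standard error 0.47). Over all genes, 0 of 12605 passed the test of this difference (0%) in edgeR, with 376 at an unadjusted p under 0.05 and a smallest adjusted p of 0.973. Leaving out 1 library gave between 0 and 144 genes, the latter without Fosl2cKO 2.

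**Figure D5:**
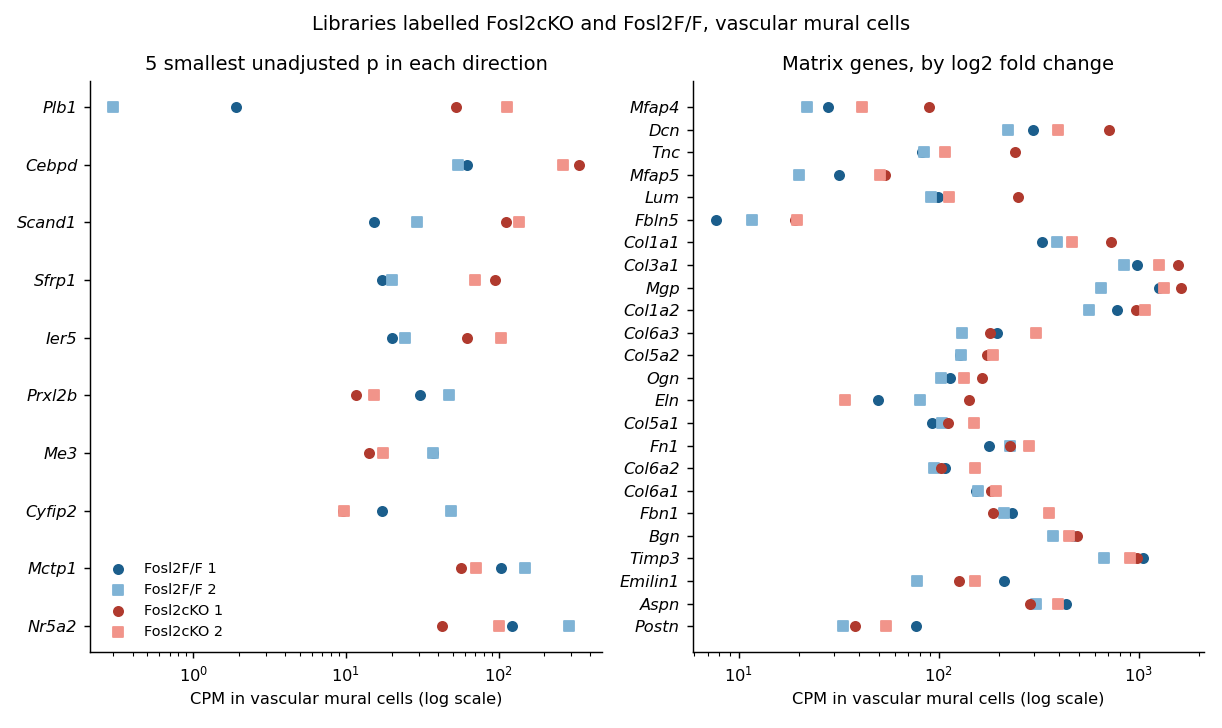
Levels in vascular mural cells in CPM on a log axis, with 1 point per library. Left, the 5 genes with the smallest unadjusted p in each direction, and right, the matrix genes ordered by fold change, in which the 2 libraries labelled Fosl2cKO lie to the right of both Fosl2F/F libraries for 14 of 24 genes.

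Among the lists of vessel wall genes, the matrix genes had the largest median difference between the conditions. Of 24 tested, 14 were higher in both libraries labelled Fosl2cKO without overlap (58.3%, beside 14.7% of all genes), 0 were lower without overlap, 5 had an unadjusted p under 0.05 and 0 passed, with a median log2 fold change of 0.45 against -0.0084 over all genes. Col3a1, a fibrillar collagen, had 980.5, 838, 1567 and 1253 CPM (0.61). Mgp, an inhibitor of vessel calcification, had 1252, 645, 1624 and 1325 CPM (0.61), and Col1a2, a chain of type I collagen, had 773, 564, 962 and 1065 CPM (0.57). For each of the 3, the gap between the groups was smaller than the distance between the libraries of 1 of the groups. Larger log2 fold changes were found for Dcn, the proteoglycan decorin, at 295, 222, 709.8 and 395 CPM (1.08, unadjusted p = 0.019), and its level was higher in members near the edge of the rule (means of 707 CPM with exactly 3 rule genes and 168 CPM with 6 to 8). Mfap4, a microfibril protein, had 27.8, 21.9, 88.8 and 41.3 CPM (1.41, unadjusted p = 0.011). Tnc, or tenascin, had 82.5, 84.3, 239 and 107 CPM (1.05). Timp3, which inhibits metalloproteinases, had 1048, 666, 977 and 902 CPM and overlapped. Most of these genes are also genes of fibroblasts. Of 8 fibroblast markers, 0 passed and 5 were higher in both libraries labelled Fosl2cKO without overlap (62.5%, beside 14.7% of all genes). Of these 5, Dcn and Lum are also on the matrix list and among its 14 genes, so the lists are not separate. The 8 had a median log2 fold change of 0.58 and a sum of 1129, 1114, 1774 and 1986 CPM. None of the 8 was at 0. In the theca-stromal cells the same 8 summed to 2536, 2220, 3245 and 3257 CPM, which is the same order of the groups, and in endothelial cells to 371, 376, 444 and 339 CPM, where the groups overlapped. Mmp2, a matrix metalloproteinase and 1 of the 8, had 27.8, 32.4, 77.2 and 70.4 CPM (1.26). The part of fibroblast RNA or of fibroblast-like cells in the matrix values was not tested.

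The contractile and pericyte lists lay near the median of all genes. Of 24 contractile genes tested, 0 passed and 1, Srf, was higher in both libraries labelled Fosl2cKO without overlap (from 2 UMIs in Fosl2F/F 1), with a median log2 fold change of 0.12. Acta2 had a log2 fold change of 0.13 with a standard error of 0.56, and Tagln had -0.04 with 0.62. Of 17 pericyte genes tested, 0 passed and 1, Cspg4, was higher without overlap (log2 fold change 0.42), with a median of -0.12. The 8 rule genes had a median of -0.16 and none without overlap.

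In the Notch pathway, 0 of 15 genes tested passed, 2 were higher without overlap in the libraries labelled Fosl2cKO and 0 lower, and the median log2 fold change was 0.13. The 2 were Rbpj, the DNA-binding partner of the cleaved receptor, at 44.1, 85.5, 91.4 and 101 CPM, and its target Hes1 at 97.9, 56.1, 147 and 129 CPM (0.84, unadjusted p = 0.042). Another target, Heyl, had 133, 89.1, 90.9 and 173 CPM. The coactivator Maml2 had 257, 306, 325 and 266 CPM and the inhibitor Numb had 102, 153, 132 and 152 CPM. The receptor and most of its partners thus overlapped between the groups.

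Among 22 genes tested for the crosstalk of mural and endothelial cells, 0 passed, 2 were higher and 1 was lower without overlap, and the median was 0.16. Id3, a target of BMP signals, had 1596, 849, 1175 and 834 CPM and Bmpr2, a BMP receptor, had 248, 351, 335 and 249.5 CPM. The TGF-beta receptor Tgfbr1 had 77.7, 155, 161 and 139.6 CPM. All 3 overlapped between the groups. Smad7, which inhibits TGF-beta signals, had 30.7, 52.8, 65.5 and 103 CPM (0.95, unadjusted p = 0.024), the receptor Pdgfra had 54.7, 81.3, 105 and 95.9 CPM and the co-receptor Eng had 48.9, 42.6, 31.2 and 40.7 CPM, and these were the 3 without overlap. Angpt1, the angiopoietin that mural cells supply to the endothelial receptor Tek, had 123, 77.1, 85.6 and 140.3 CPM, and its antagonist Angpt2 had 101, 49.2, 61.3 and 70.4 CPM.

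The receptors of vasoactive signals were sparse. Of 30 listed, 20 were tested, 0 passed, 2 were higher and 1 lower without overlap, with a median of 0.23. Ednra had 275, 142, 142 and 225 CPM. Npr3, the clearance receptor of natriuretic peptides, had 159, 61.5, 95.7 and 131 CPM, and both were highest in Fosl2F/F 1. Ramp1 had 46.1, 22.8, 66.6 and 19.4 CPM, and Calcrl, the receptor that it partners, had 27.8, 32.7, 44.9 and 48.0 CPM. Calcrl and F2r, a thrombin receptor (25.9, 34.5, 38.1 and 41.9 CPM), were the 2 that were higher, and the natriuretic peptide receptor Npr2 (11.5, 15, 8.46 and 9.11 CPM) was the lower one. Ptgfr, the receptor of prostaglandin F, had 8.63, 69.9, 0.53 and 11.5 CPM, with most of it in Fosl2F/F 2, the library that also held the most theca and luteal RNA in these cells, and the part of those cells in it was not tested.

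Of 24 genes tested that make, break down or sense cyclic nucleotides, 0 passed and 4 were higher without overlap (16.7%, beside 14.7% of all genes), with a median of 0.16. Prkg1 had 2196, 1685, 2087 and 2376 CPM. Gucy1a1 had 334, 287, 291 and 389 CPM and Gucy1b1 had 308, 209.9, 215 and 290.2 CPM. For these parts of the nitric oxide pathway the groups overlapped. The 4 were the phosphodiesterases Pde5a (165, 151, 186 and 245 CPM) and Pde7b (151, 208, 239 and 329.7 CPM) and the adenylyl cyclases Adcy3 (12.5, 18.0, 20.1 and 21.9 CPM) and Adcy5 (42.2, 26.7, 46.5 and 46.8 CPM). Prkar1a, a regulatory subunit of protein kinase A, had 345, 265, 314 and 279 CPM. Of 12 RGS genes tested, 0 passed and 1 was higher without overlap, with a median of -0.08. Rgs2 had 124, 144, 136 and 121 CPM and Rgs16 had 168, 81.9, 149 and 88.0 CPM, and neither separated the groups.

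Of 22 channels and calcium transporters tested, 0 passed and 3 were higher without overlap, with a median of 0.09. Cacna1c, the pore of the L-type calcium channel, had 1025, 715, 905 and 951 CPM and its subunit Cacnb2 had 990.1, 755, 1046 and 973 CPM. The sodium-calcium exchanger Slc8a1 had 999.7, 561, 867 and 763 CPM. Itpr1, the release channel of the endoplasmic reticulum, was even over the libraries at 477, 468, 527 and 474 CPM. The 3 higher genes were Cacna2d1 (418, 386, 567 and 445 CPM), the ryanodine receptor Ryr2 (93.1, 106, 112 and 175 CPM) and the store-operated channel Orai1 (10.6, 10.8, 24.3 and 18.2 CPM, unadjusted p = 0.032).

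Basement membrane genes numbered 24 tested, of which 0 passed and 2, the nidogens Nid1 (138, 154, 206 and 226 CPM) and Nid2 (28.8, 26.7, 35.4 and 36.4 CPM), were higher without overlap, with a median of 0.19. Sparc, a collagen-binding matricellular protein, had 2328, 1953, 1989 and 2296 CPM. Col4a1 had 1158, 1662, 1116 and 1959.9 CPM and Col4a2 had 630.3, 938, 732 and 1024 CPM. Fosl2F/F 2 and Fosl2cKO 2 were the high libraries for both collagen chains. The integrin subunit Itgb1 had 645, 743, 742 and 781 CPM. The groups overlapped for each of these 4 genes.

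Of 15 genes of AP-1 and early stress, 0 passed, 3 were higher and 1 was lower without overlap, with a median of 0.11. Fos had 3178, 2464, 3569.8 and 1908 CPM. Junb had 3047, 1519, 2478 and 1451 CPM and Jun had 1639, 1772, 2207 and 1837 CPM. These genes respond to tissue dissociation as well as to signals in the animal, and of the 3 only Jun was higher in both libraries labelled Fosl2cKO. Jund had 215, 209.9, 326 and 1163 CPM (1.76, unadjusted p = 0.0093), with most of the difference from Fosl2cKO 2. In endothelial cells Jund had 174, 214, 265 and 1015 CPM, with the same library far above the others. Among 5 steroid receptors tested, 0 passed. The estrogen receptor Esr1 had 76.8, 118, 117 and 80.1 CPM and Nr3c1, the glucocorticoid receptor, had 85.4, 104, 147 and 131 CPM. Nr3c1 was higher and Esr2 (58.5, 65.7, 53.9 and 54.6 CPM) was lower in both libraries labelled Fosl2cKO, with a median of 0.03 for the list.

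Markers of other cells were compared in the same way, and 0 passed in any of these lists. Over all genes, 14.2% were lower without overlap in the libraries labelled Fosl2cKO, and the counts below stand beside this share. Of 8 theca and luteal markers, 0 passed, with a median log2 fold change of -0.89. Lower without overlap were 2 of them, Cyp17a1 and Scarb1 (189, 427, 105 and 187 CPM). Cyp11a1, which starts steroid synthesis, had 437, 1443, 725 and 245 CPM. Cyp17a1, the androgen-forming enzyme of theca cells, had 414, 36.9, 0 and 30.4 CPM, highest in Fosl2F/F 1. The luteinizing hormone receptor Lhcgr had 41.3, 342, 12.7 and 49.2 CPM, highest in Fosl2F/F 2. The groups overlapped for Cyp11a1 and Lhcgr. Of 8 GC markers tested, 4 were lower without overlap, among them Inha at 437, 540.1, 274 and 338 CPM, with a median of -0.33. Of 6 endothelial markers tested, 2 were lower without overlap, Pecam1 at 10.6, 21.0, 5.81 and 5.46 CPM and Flt1 at 5.76, 17.4, 1.59 and 2.43 CPM, with a median of -0.67, and Flt1 is 1 of the genes on which the rule left cells out. Immune (3 tested) and epithelial (5 tested) markers held none without overlap, with medians of 0.19 and -0.08. Of 2 glial and red cell genes tested, 1 was lower without overlap (median -2.14). Of the 8 genes tested on which the rule left cells out, Flt1 alone was without overlap, with a median of -0.04. The summed GC and endothelial markers were thus higher in both Fosl2F/F libraries. Those libraries were the shallower ones and also held more GCs (3321 and 3044, against 797 and 935). The parts of depth, GC number and condition in these sums were not tested. The summed theca and luteal markers were highest in Fosl2F/F 2 and lower in Fosl2F/F 1 than in Fosl2cKO 1. Leaving out the cells with high doublet scores also gave 0 genes passed, and the part of doublets was not tested further.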

How the data were processed

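Ovaries were profiled by droplet single-cell RNA sequencing of 3′ ends in 4 libraries, 2 Fosl2F/F and 2 labelled Fosl2cKO. The authors aligned reads to GRCm38 with Cell Ranger, and the deposited values are raw UMI counts per gene and cell for 32285 genes, without normalization. The file headers name Cell Ranger 7.1.0, another version than the methods, and the submitters' notes name Seurat 4.1.0. The methods describe CellBender, and whether it was applied to the deposited counts is not given in the sources used here. Doublets, which the methods removed, were kept here and their effect was tried with Scrublet (scanpy 1.11.5), leaving out the highest-scoring 0.8% of cells per 1000 cells of a library.

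Vascular mural cells were picked by the rule given above. UMIs were summed per library, and genes were kept with filterByExpr, scaled by TMM and compared by edgeR 4.0.16 (R 4.3.3), using its quasi-likelihood F-test and Benjamini-Hochberg adjustment over all genes tested. The test was tried on simulated counts. Levels are UMIs per 1000000 UMIs of the class, unscaled. Fold changes compare the libraries labelled Fosl2cKO with Fosl2F/F. Shares were compared with exact permutation tests over libraries. Named genes are the rule genes, Fosl2, Cyp19a1 and Plb1, up to 4 genes of each list with the highest level and those without overlap, the 20 genes with the highest ratio to other cells at 100 CPM or more, and the 5 smallest unadjusted p in each direction at 20 CPM or more. A few genes that these rules select are not reported here. The cells, lists and rules were chosen with earlier results of these data known, and the split on thinned UMIs and the count per 100 endothelial cells were added after the data had been seen. Alternatives were DESeq2 1.42.0, other size factors, no gene filter, at least 4 rule genes, no high doublet scores, under 0.1% hemoglobin, over 2000 UMIs, the replicate number as a block, another threshold and leaving out each library. Over all vascular mural cells of a library, a floor of 3 UMIs corresponds to 0.90 to 2.88 CPM. In the contractile-gene and pericyte-gene cells, which hold fewer UMIs, the same floor lies higher.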

Additional observations from a re-analysis of the deposited data

How the results depend on the processing

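The log2 ratio of the share of vascular mural cells (libraries labelled Fosl2cKO over Fosl2F/F) was 0.16, and 0.16 to 0.22 with thinned cells, at least 4 rule genes, no high doublet scores or under 0.1% hemoglobin. It was -0.082 outside GCs and -0.29 per 100 endothelial cells, and -0.037 to 0.39 leaving out each library, with the negative value without Fosl2F/F 1. The log2 ratio of the unthinned contractile share was 0.26, and 0.11 to 0.53 over its alternatives.

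The count of genes passed was 0 in edgeR and 0 with RLE size factors, at least 4 rule genes, no high doublet scores, under 0.1% hemoglobin, over 2000 UMIs and a threshold of 0.05 on the adjusted p alone. DESeq2 gave 7 and no filter on low counts gave 124 (68 higher, 56 lower, of 20758 tested). Leaving out each library gave 0 to 155, with 155 (77 higher, 78 lower) without Fosl2cKO 1 and 101 (58 higher, 43 lower) without Fosl2cKO 2. The replicate block gave 0, with 298 genes at an unadjusted p under 0.05 in place of 336. Whether the same numbers of the 2 groups mark pairs cannot be told from these values. With 2 libraries per group, deviations from the group mean mirror each other. Both sets of equally numbered libraries thus gave the same correlation over genes, -0.0913. For the difference from endothelial cells the count was 0, also against theca-stromal cells and without high doublet scores, and 0 to 144 leaving out each library, with 6 without Fosl2F/F 1, 14 without Fosl2cKO 1 and 144 without Fosl2cKO 2. In the fits without a filter on low counts, without Fosl2cKO 1 and without Fosl2cKO 2, the spread of single genes was not used. Their counts of genes passed in vascular mural cells are not comparable with the main one. The cause of the other changes was not tested.

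The log2 fold change of Fosl2, -0.00097, changed sign with DESeq2 (0.0082), RLE size factors (0.0081), no filter (0.011), no high doublet scores (0.024), under 0.1% hemoglobin (0.0042) and over 2000 UMIs (0.030), and was -0.57 to 0.41 leaving out each library. The other 10 genes with a fitted fold change under the alternatives kept their direction. With 152 cells in the smallest library, 3 UMIs amount to 2.88 CPM there, so levels near or below it, such as those of Srf and Plb1 in Fosl2F/F 1, rest on few UMIs.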
